A study of Mus musculus with 30 samples.

Results

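The 8 genes described here are Thbs4, Mid1, Jchain, Cyp11a1, Apod, Fstl1, St6gal1 and Bdh1, read out in mouse dendritic cells labelled Rubcn knockout or wild type. They were chosen by the knockout against wild type values: each was called in 1 direction in all 5 comparisons of Rubcn knockout with wild type. They are 8 of 338 genes with that property (2.28% of the tested genes, 1.45% higher and 0.831% lower in the knockout) and 8 of 25611 in the count table. They had been set apart as steady differences lying outside the interferon and basophil genes. Those values are therefore given as a description, with standard errors and without tests, and tests are kept for the responses to treatment.

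Cells were dendritic cells grown from bone marrow for 6 to 7 days with 200 ng/ml FLT3L, the growth factor that drives conventional and plasmacytoid dendritic cells. Rubcn KO and Rubcn WT cultures were compared in 5 conditions: untreated, 30 min or 4 h of OVA protein (the model antigen ovalbumin), and 30 min or 4 h of apoptotic Jurkat cells, which are human T leukaemia cells. There were 3 bulk RNA libraries for every genotype and condition, 30 in all. No source used here gives the knockout design, the mouse strain, age or number of mice, so errors and p-values measure the spread between these libraries, which may be technical. In bulk RNA, more cells of a type cannot be told apart from more RNA of a gene per cell.

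Rubcn encodes Rubicon, which restrains the autophagy lipid kinase complex and is required for LC3-associated phagocytosis. The 8 genes belong to no shared pathway. Thbs4 (thrombospondin 4) and Fstl1 (follistatin-like 1) are secreted glycoproteins of the extracellular matrix, Fstl1 being a modulator of bone morphogenetic protein signalling. Jchain is the joining chain of polymeric immunoglobulin, best known from plasma cells, and St6gal1 adds alpha-2,6-linked sialic acid to N-glycans, the modification that the B cell receptor CD22 binds. Cyp11a1 is the mitochondrial enzyme that turns cholesterol into pregnenolone, the entry step of steroid synthesis. Bdh1 interconverts the ketone bodies beta-hydroxybutyrate and acetoacetate in mitochondria, Mid1 is a microtubule-bound ubiquitin ligase of the TRIM family, and Apod (apolipoprotein D) is a lipocalin that carries small lipids.

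All 8 genes matched a RefSeq entry (GRCm38.p6), with 14 promoter windows among them that run from 250 bases before to 50 after a start site. Of each of the 5 windows shown, the 250 bases before the start site and the first 20 after it are printed, 5′ to 3′ on the gene's own strand. The first 3 belong to the genes whose most alike genes over the 30 libraries, given with the patterns further on, include the basophil gene Mcpt8, and the last 2 hold the only motif matches found, in capitals. The windows are chr13:92794799-92795068 (minus strand) for Thbs4, chr5:88527878-88528147 (minus strand) for Jchain, chr9:57997774-57998043 (plus strand) for Cyp11a1, chr16:23224490-23224759 (plus strand) for St6gal1 and chr16:37776805-37777074 (plus strand) for Fstl1.
Thbs4: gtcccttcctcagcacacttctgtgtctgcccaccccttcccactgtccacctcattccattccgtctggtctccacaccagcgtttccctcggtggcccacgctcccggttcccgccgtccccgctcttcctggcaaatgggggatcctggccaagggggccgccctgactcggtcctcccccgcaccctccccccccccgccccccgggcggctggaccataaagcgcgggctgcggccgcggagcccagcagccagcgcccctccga
Jchain: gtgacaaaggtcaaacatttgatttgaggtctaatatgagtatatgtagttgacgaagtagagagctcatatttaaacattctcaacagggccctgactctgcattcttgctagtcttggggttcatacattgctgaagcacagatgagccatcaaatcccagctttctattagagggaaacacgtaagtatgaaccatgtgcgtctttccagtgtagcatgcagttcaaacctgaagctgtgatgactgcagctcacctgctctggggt
Cyp11a1: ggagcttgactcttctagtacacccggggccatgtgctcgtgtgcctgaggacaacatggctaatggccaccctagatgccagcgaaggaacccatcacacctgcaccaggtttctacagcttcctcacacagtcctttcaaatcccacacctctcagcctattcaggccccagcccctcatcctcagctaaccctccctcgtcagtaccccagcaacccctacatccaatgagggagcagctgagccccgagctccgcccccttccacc
St6gal1: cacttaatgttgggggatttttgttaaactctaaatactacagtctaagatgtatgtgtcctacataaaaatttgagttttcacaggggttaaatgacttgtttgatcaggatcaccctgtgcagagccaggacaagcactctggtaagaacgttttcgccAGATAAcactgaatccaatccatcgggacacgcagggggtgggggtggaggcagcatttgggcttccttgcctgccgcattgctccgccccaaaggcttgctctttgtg
Fstl1: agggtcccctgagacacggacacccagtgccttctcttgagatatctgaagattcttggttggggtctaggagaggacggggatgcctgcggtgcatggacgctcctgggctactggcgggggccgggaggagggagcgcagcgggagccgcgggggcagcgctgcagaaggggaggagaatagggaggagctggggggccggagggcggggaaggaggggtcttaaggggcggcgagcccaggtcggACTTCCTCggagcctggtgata

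A set of 3 motifs was searched on both strands of the full windows of 300 bases. The core of the interferon-stimulated response element (GAAA, any 2 bases, GAAA) was in 0 of the 14 windows of the 8 genes and in 3.44% of all 32851 mouse promoter windows. The GATA motif (AGATAA) was in 1 window, that of St6gal1 at 89 to 84 bases before the start site, against 11.2% of all windows. The PU.1 motif (GAGGAAGT) was in 1 window, that of Fstl1, where it lies on the opposite strand from 2 bases before the start site, against 3.2% of all windows. A match here is a run of letters and not a measured binding site, and the windows of Thbs4, Jchain, Cyp11a1, Apod, Mid1 and Bdh1 held none of these letters.

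Total counts ran from 9734778, in 1 knockout library of 30 min OVA, to 51642601, and all other libraries had at least 38680894. Without that library all 8 genes were still called, in the same direction, in knockout against wild type with OVA for 30 min (edgeR). The rule used that comparison and its other libraries remain, so this is a description only. Levels are CPM, counts relative to library size, scaled with edgeR's TMM factors. Rubcn itself was lower in the knockout but not absent: untreated libraries had 72.8 ± 2.74 CPM in the knockout and 98.9 ± 4.96 CPM in the wild type (mean ± SD, n = 3). That is a log2 difference of -0.44, and knockout and wild-type libraries did not overlap in any of the 5 conditions. The dendritic cell genes Flt3, Cd74 and H2-Ab1 were abundant in all 30 libraries, with Flt3 at 228 to 582 CPM. Cultures of both genotypes came from male cells by their transcripts: Xist did not exceed 0.241 CPM, Uty, the least abundant of 4 Y-linked genes, was at 21.9 CPM or more, and 0 of 5 tested sex-linked genes was called between genotypes in any condition (edgeR's quasi-likelihood test, Benjamini-Hochberg FDR under 0.05).

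By the rule all 8 genes were called in each comparison, where 9.97% (untreated), 12.4% (OVA 30 min), 12.6% (OVA 4 h), 9.25% (Jurkat 30 min) and 22.9% (Jurkat 4 h) of the 14808 tested genes were called. Apod was lower in the knockout and the other 7 were higher. Of all tested genes 6% were higher and 3.97% lower in untreated cells, 6.25% and 6.13% with OVA for 30 min, and 6.22% and 6.35% with OVA for 4 h. With Jurkat cells 5.58% were higher and 3.67% lower at 30 min, and 9.37% and 13.5% at 4 h. The 3 knockout libraries lay entirely on one side of the 3 wild-type libraries for each of the 8 genes in all 5 conditions, which 3.49% of the tested genes did. Among the 338 steady genes, ranked by the median size of the log2 difference over the 5 conditions, Thbs4 was at place 1, Mid1 at 9, Jchain at 10, Cyp11a1 at 11 and Apod at 28, while Fstl1, St6gal1 and Bdh1 stood at 172, 192 and 224. The group thus joins some of the largest steady differences with some of middling size. At the edge of the rule, Spib and Tgfb2 were just inside, with a largest adjusted p of 0.0497 and 0.0492 over the 5 comparisons (edgeR), and Mmp23 and Ltbp3 just outside, at 0.0503 and 0.0505.

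**Figure D1:**
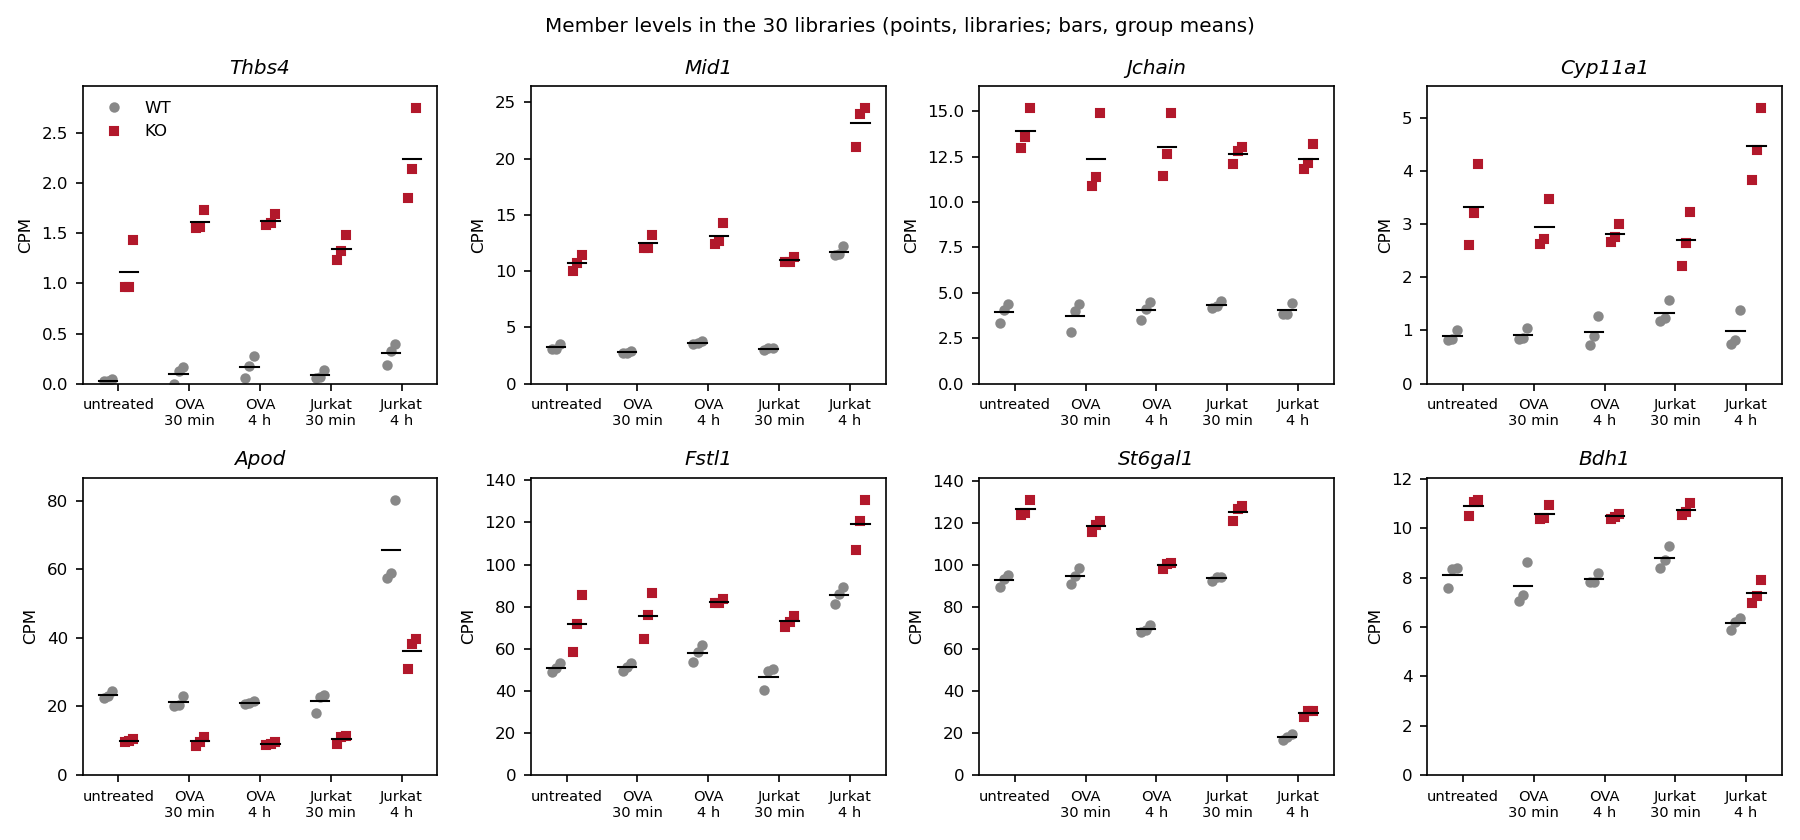
Level of each of the 8 genes in CPM (y axis, linear, from 0) in the 30 libraries by condition (x axis), wild type as grey circles and Rubcn knockout as red squares, with a bar at the mean of each group of 3. In every panel and condition the squares and circles do not overlap, with Apod the only gene whose knockout libraries are the lower ones.

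Thbs4 was close to undetected in wild-type cells and present at a low level in the knockout. Untreated knockout libraries had 0.966, 1.43 and 0.962 CPM, and untreated wild-type libraries 0.0445, 0.0216 and 0.0204 CPM. These are 163 counts over the 3 knockout libraries and 4 over the 3 wild-type libraries, a ratio of 39.2 whose exact 95% interval of 15.03 to 146 covers counting error only. The ratio was smaller with every treatment, and the treated wild-type groups had 12 to 32 counts each. With 4 h of Jurkat cells the knockout libraries had 2.14, 2.75 and 1.85 CPM and the wild-type libraries 0.394, 0.329 and 0.180 CPM, or 255 against 32 counts and a ratio of 7.36 (5.09 to 11.0). In 1 wild-type library of 30 min OVA no read was counted, which allows up to 0.0657 CPM at its depth (3 counts).

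Fstl1, the other secreted member, differed by a far smaller factor from a much higher base. In untreated cells the knockout libraries had 85.4, 71.6 and 58.3 CPM, and untreated wild-type libraries 48.9, 50.9 and 53.1 CPM. The knockout libraries were spread widely, and the lowest of them lay close above the highest wild-type library. The log2 difference was 0.49 ± 0.10 (SE) in untreated cells and ranged from 0.48 to 0.64 over the 5 conditions. It was highest in both genotypes with 4 h of Jurkat cells, at 121, 131 and 107 CPM in the knockout and 89.4, 81.1 and 86.1 CPM in the wild type.

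Jchain had the most constant difference of the large ones. Without treatment the knockout libraries had 13.6, 15.2 and 12.98 CPM and untreated wild-type libraries 4.05, 4.40 and 3.31 CPM. Every knockout library of the series lay between 10.9 and 15.2 CPM and every wild-type library between 2.83 and 4.55 CPM. The log2 difference was 1.83 ± 0.13 in untreated cells and 1.54 to 1.83 over the conditions. Ordered by level, the 5 wild-type groups came first and the 5 knockout groups after them, and the single gap between neighbouring groups without overlapping libraries was the one between genotypes.

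St6gal1 differed little but tightly. Untreated knockout libraries were at 131, 124 and 125 CPM, and untreated wild-type libraries 89.5, 95.1 and 93.6 CPM, a log2 difference of 0.45 ± 0.04. The smallest difference was with OVA for 30 min (0.33 ± 0.04) and the largest with Jurkat cells for 4 h (0.70 ± 0.05). In that last condition the level was far lower in both genotypes, at 30.5, 27.7 and 30.3 CPM in the knockout and 19.6, 16.7 and 17.99 CPM in the wild type.

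Cyp11a1 was present at a low level in the wild type. In untreated knockout cells the 3 libraries had 2.60, 4.15 and 3.21 CPM, and untreated wild-type libraries 0.846, 0.819 and 1.0 CPM, a log2 difference of 1.90 ± 0.21. Its difference moved more between conditions than that of Jchain, from 1.02 ± 0.20 with Jurkat cells for 30 min to 2.19 ± 0.21 with Jurkat cells for 4 h. At 30 min the wild-type libraries were at 1.58, 1.17 and 1.24 CPM and the knockout libraries at 3.23, 2.66 and 2.21 CPM. At 4 h the knockout libraries reached 3.83, 4.40 and 5.19 CPM over wild-type libraries at 0.813, 0.748 and 1.38 CPM.

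Bdh1 had the smallest median difference of the 8 over the 5 conditions (0.40 on the log2 scale), although with OVA for 30 min St6gal1 differed less. Before treatment the knockout libraries had 11.1, 11.2 and 10.5 CPM, and untreated wild-type libraries 7.57, 8.37 and 8.39 CPM, a log2 difference of 0.43 ± 0.07. It ranged from 0.26 ± 0.07 with Jurkat cells for 4 h, where the knockout had 7.25, 6.99 and 7.91 CPM and the wild type 6.19, 5.89 and 6.37 CPM, to 0.47 ± 0.07 with OVA for 30 min. The Jurkat 4 h value was the least secure of the 40: its adjusted p rose to 0.0715 without knockout library 3 and to 0.0579 without wild-type library 2 (edgeR), so that without either library Bdh1 would not have met the rule.

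Mid1 was the most precisely measured of the large differences. Untreated knockout libraries had 9.995, 10.7 and 11.4 CPM and untreated wild-type libraries 3.09, 3.06 and 3.53 CPM, a log2 difference of 1.72 ± 0.08. It was largest with OVA for 30 min (2.14 ± 0.08) and smallest with Jurkat cells for 4 h (0.98 ± 0.06). In laboratory mice Mid1 spans the boundary of the pseudoautosomal region of the X chromosome, and no source used here says how reads shared with a copy on the Y chromosome were counted, so its level is uncertain in that respect.

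Apod was the only one of the 8 to be lower in the knockout. In untreated cells the knockout libraries had 9.60, 10.4 and 9.82 CPM, and untreated wild-type libraries 24.5, 22.5 and 23.0 CPM, a log2 difference of -1.23 ± 0.12. The difference was -0.85 ± 0.10 with Jurkat cells for 4 h, the smallest of the 5. There the knockout libraries had 39.8, 30.9 and 38.1 CPM and the wild-type libraries 57.5, 80.3 and 59.0 CPM, so that the treated knockout exceeded every untreated wild-type library.

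**Figure D2:**
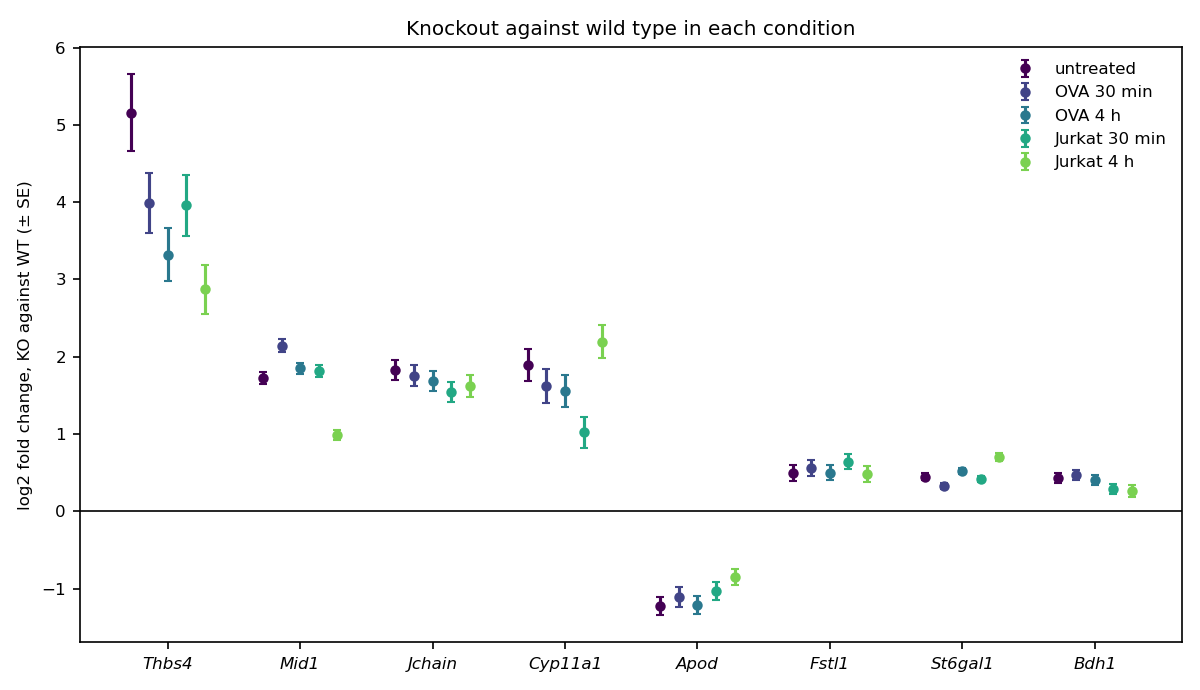
Log2 fold change of Rubcn knockout against wild type (y axis) for each of the 8 genes (x axis) in the 5 conditions (colours), from edgeR, with bars of 1 SE and 3 libraries a group. Thbs4 runs from 5.16 in untreated cells to 2.87 with Jurkat cells for 4 h, Jchain stays between 1.54 and 1.83, and Apod lies below 0 throughout.

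Markers of other cell types moved with the genotype. Of 9 tested basophil and mast cell genes, 8 were higher in untreated knockout cells and 0 lower, with 8, 7, 9 and 8 higher after OVA for 30 min, OVA for 4 h, Jurkat cells for 30 min and Jurkat cells for 4 h. Their median log2 difference was 1.37 in untreated cells, against -0.01 over all tested genes. Mcpt8, a basophil protease, was at 17.1 ± 4.06 CPM in untreated knockout and 3.57 ± 0.448 CPM in untreated wild-type cells (log2 difference 2.26, adjusted p = 3.33e-10, edgeR). Gata2, a transcription factor of basophils, mast cells and progenitors, and the basophil protease Prss34 were higher by 1.36 and 1.46 (adjusted p = 1.2e-07 for each, edgeR). The mast cell protease genes Mcpt4, Tpsb2 and Cma1 and the cytokine gene Il4 were at or near 0, none above 0.106 CPM in any library. The summed level of the 13 listed genes was 198 to 226 CPM in untreated knockout and 149 to 161 CPM in untreated wild-type libraries, with Kit, also a progenitor gene, as most of it (137 and 130 CPM).

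Stromal genes were higher in the knockout too, and several plasmacytoid dendritic cell genes were lower. Of 14 stromal genes 10 were higher in untreated knockout cells and 0 lower (median log2 difference 0.56), led by Acta2 (0.80), Bgn (0.54) and Sparc (0.54). Their summed level was 1135 to 1495 CPM in untreated knockout and 885 to 1011 CPM in untreated wild-type libraries. Of 13 plasmacytoid dendritic cell genes 7 were lower, 1 was higher and 5 were not called in untreated knockout cells (median -0.23). Bst2 (-0.35) and Lag3 (-0.33) were lower and Cox6a2 (0.39) was higher. The summed level of this list was 2988 to 3178 CPM in untreated knockout and 3431 to 3489 CPM in untreated wild-type libraries. The summed levels of all 3 lists separated the genotypes without overlap in all 5 conditions.

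Of 16 B and plasma cell genes 5 were higher and 0 lower in untreated knockout cells (median 0.21), among them Blk (0.38), a kinase of B cells that plasmacytoid dendritic cells also express, Mzb1 (0.93) and Sdc1 (0.25). The Sdc1 call was lost without untreated knockout library 1 (adjusted p = 0.0916, edgeR) or wild-type library 3 (adjusted p = 0.0590). Pax5, the B lineage factor, was at 0.610 ± 0.0595 CPM in knockout and 0.318 ± 0.0929 CPM in wild-type cells. The plasma cell receptor gene Tnfrsf17 was at or near 0, with at most 0.146 CPM in any library. The summed level of the list did not separate the genotypes in untreated cells, at 396 to 415 CPM in the knockout and 399 to 408 CPM in the wild type. It was lower in the knockout without overlap with OVA for 4 h (401 to 410 against 421 to 426 CPM) and with Jurkat cells for 4 h (516 to 540 against 544 to 586 CPM). Xbp1 is the largest part of this sum, at 265 to 402 CPM over the 30 libraries. Gene by gene the list went the other way. With OVA for 4 h 5 genes were higher and 1 lower (median 0.18), and with Jurkat cells for 4 h 4 were higher and 1 lower (median 0.26).

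**Figure D3:**
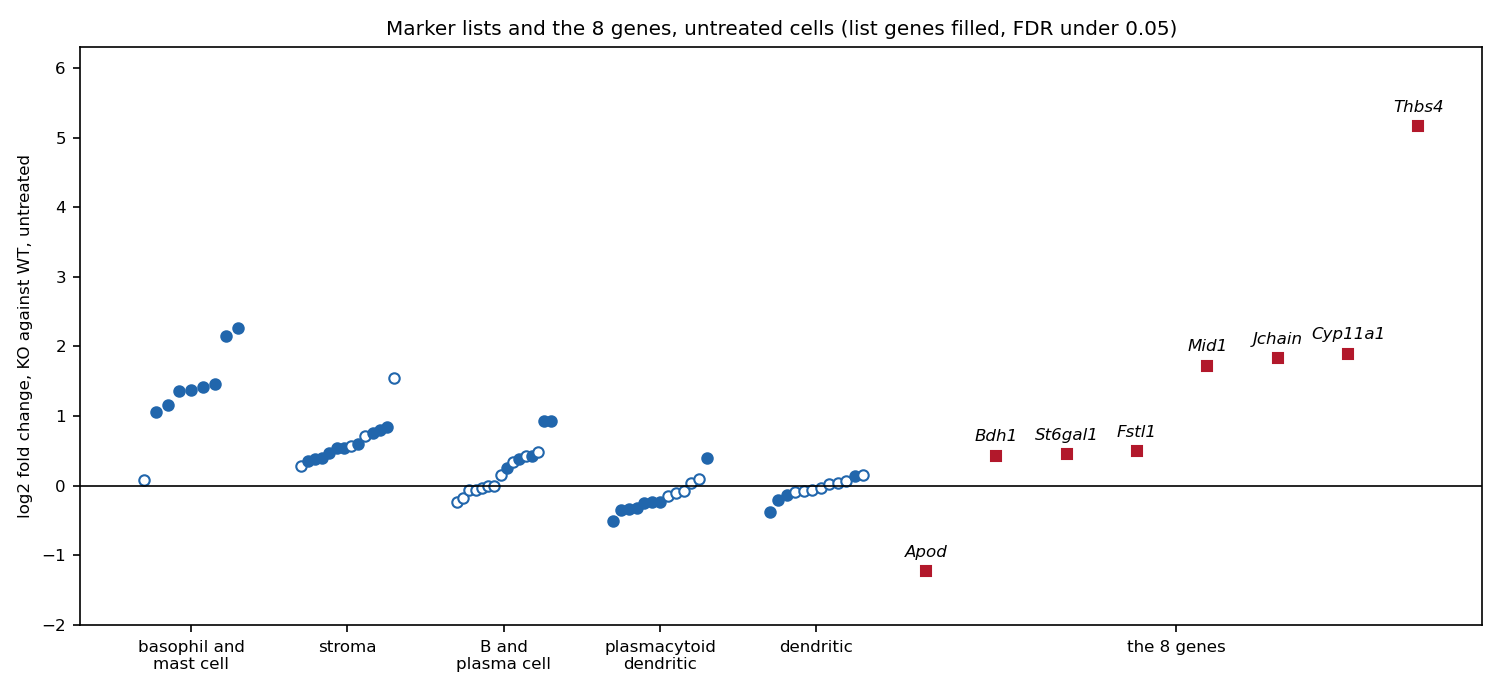
Log2 fold change of knockout against wild type in untreated cells (y axis) for the tested genes of 5 marker lists (blue circles, filled where FDR is under 0.05 in edgeR) and for the 8 genes (red squares). The list genes are ordered by value within each list, with a median of 1.37 for the basophil and mast cell list and 0.56 for the stromal list. The 8 genes were chosen by values of this kind, so their height beside a list does not assign them to a cell type.

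The genes most alike in pattern to each of the 8 were looked up over the 30 libraries. Among 12136 tested genes with a mean of at least 1 CPM, the gene most like Cyp11a1 by Pearson correlation of log2 CPM was Mcpt8 (r = 0.97), followed by Gata2 (0.96). The closest to Jchain were Mcpt8 (0.97) and Ms4a2 (0.95), the latter the beta chain of the high-affinity IgE receptor. For Thbs4 they were Msrb3 (0.92) and Mcpt8 (0.92). These correlations rest on 10 groups of 2 genotypes, and each of the 8 was chosen for its genotype difference, which largely sets them, so they are a description and do not show which genes belong with basophils.

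With each group's mean removed, so that the genotype difference no longer counts, the libraries of a group still varied together for some pairs. The most alike genes were picked by a correlation over these same libraries, which includes these deviations. Their values are therefore raised by the choice and are a description only. Deviations of other gene pairs were not counted as a background. The correlation of these deviations over the 30 libraries was 0.77 for Cyp11a1 and Mcpt8, 0.39 for Jchain and Mcpt8, and 0.17 for Thbs4 and Mcpt8, whose counts are sparse. Against the summed level of the basophil and mast cell list, most of which is Kit, the deviations correlated at 0.66 for Cyp11a1, -0.05 for Jchain and 0.23 for Thbs4. Fstl1 was most like Lox and Loxl2, the enzymes that cross-link collagen (r = 0.99 for each), with deviations correlated at 0.91 and 0.91. Its deviations also followed the summed level of the 14 stromal genes (r = 0.93), and the knockout library with the highest untreated Fstl1 level is the one with the highest stromal sum. Mid1 was most like Tpm2 and Col1a1 (0.96 and 0.95), a tropomyosin and a collagen gene, but its deviations did not follow theirs (-0.10 and 0.04).

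Apod was most like Wdfy1 and Lag3 (0.98 and 0.97), both lower in the knockout in all 5 conditions. Its deviations correlated at 0.71 with the summed level of the plasmacytoid dendritic cell genes. St6gal1 was most like Eps8 and Gga2 (0.99 for each), and Bdh1 most like Cox6a2 and H2-DMb2 (0.95 for each). Libraries of a group share their preparation and differ in depth, and no p is given for any of these values. The part that more basophils, more stromal cells or fewer plasmacytoid dendritic cells in the knockout cultures might have in the differences of the 8 genes was not tested.

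Lists of genes that work with each of the 8 were counted in untreated cells, where 9.97% of all tested genes were called, 6% higher and 3.97% lower. Of 10 thrombospondin genes and receptors 1 was higher in untreated knockout cells, Thbs1 (0.42 ± 0.10, adjusted p = 0.00612, edgeR), and 0 were lower. Thbs1 was called in 3 of the 5 conditions and its log2 difference was 0.24 (adjusted p = 0.122, edgeR) without untreated knockout library 1. Of 9 genes of the Mid1 family and its partners 1 was higher, Mid1ip1 (0.18 ± 0.04), and the phosphatase subunit genes Ppp2ca, Ppp2cb and Ppp2r1a were not called in untreated cells. Medians of the 2 lists were 0.06 and 0.05.

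Of the joining chain's partners, the polymeric immunoglobulin receptor gene Pigr was at or near 0 (at most 0.0897 CPM in any library), and the genes of immunoglobulin constant regions were not analysed here. Among the 4 tested genes of that list 1 was higher in untreated knockout cells, Mzb1 (0.93 ± 0.19), which helps plasma cells assemble immunoglobulin, and 3 were not called. Of 24 tested genes of sialic acid synthesis, transfer and recognition, 1 was lower in untreated knockout cells and 0 higher. It was St3gal6, which adds alpha-2,3-linked sialic acid (-0.38 ± 0.08, adjusted p = 0.00189, edgeR), and it was lower in all 5 conditions, opposite to St6gal1. St6gal2, the other enzyme that makes the alpha-2,6 linkage on N-glycans, had no count in any library.

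For Cyp11a1 several enzymes that act after it were at or near 0. Cyp21a1 and Cyp19a1 had no count, Cyp17a1 did not exceed 0.0832 CPM and Hsd3b1 did not exceed 0.0268 CPM in any library, while Srd5a1, a steroid 5-alpha reductase, was at 1.70 to 4.85 CPM. Star, which carries cholesterol to the inner mitochondrial membrane, was at 6.10 ± 0.0824 CPM in untreated knockout and 6.21 ± 0.471 CPM in untreated wild-type cells and was not called in any of the 5 comparisons. Of 11 tested steroid genes 1 was higher in untreated knockout cells and 2 were lower, Stard3 (-0.26 ± 0.04) and Tspo (-0.17 ± 0.05), and the higher one was Stard4 (0.19 ± 0.05). The Stard4 call was lost in the fit of the untreated groups alone (adjusted p = 0.0567, edgeR) and without any of 4 single libraries (knockout 1 or 2, wild type 2 or 3, adjusted p up to 0.107), and the Tspo call without any of 3 (knockout 1 or 3, wild type 2, adjusted p up to 0.121). Stard3 was lower in all 5 conditions.

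Of 16 tested genes listed for ketone bodies, fatty acid oxidation and related lipid synthesis 3 were higher and 1 lower in untreated knockout cells. Acat2 (0.27 ± 0.05) and the lactate and ketone transporter gene Slc16a1 (0.27 ± 0.07) were among the higher ones, and Cpt1a, the gate of mitochondrial fatty acid import, was the lower one (-0.24 ± 0.05). The Slc16a1 call was lost without any of 3 single libraries (knockout 1 or 3, wild type 3, adjusted p up to 0.0685, edgeR). Of 10 tested lipocalin and apolipoprotein genes 1 was lower in untreated knockout cells, Apol7c (-0.58 ± 0.10), and Apoe, at 794 ± 133 and 769 ± 122 CPM in knockout and wild type, was not called. Of 23 genes of the follistatin and SPARC families and of bone morphogenetic protein and activin signalling 5 were higher and 0 lower in untreated knockout cells. Igfbp7 (0.67 ± 0.10), Sparc (0.54 ± 0.09) and the signalling target Id1 (0.87 ± 0.17) led them, and Sparc stands in the stromal list as well. The medians of the ketone, lipocalin and follistatin lists were 0.05, -0.25 and 0.13.

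Treatment was tested on both genotypes together, each treatment against untreated cells with the knockout and wild-type responses averaged (12 libraries). This contrast was not used to choose the genes. OVA for 30 min called 0 of the 8, where 16.5% of the tested genes were called (8% higher, 8.45% lower), and Jurkat cells for 30 min called 0 of the 8, where 37.5% were (19.3% higher, 18.2% lower). Without adjustment 1 of the 8 passed 0.05 at 30 min of OVA, Thbs4 (1.09 ± 0.43, adjusted p = 0.0872, edgeR), and 0 did at 30 min of Jurkat cells.

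OVA for 4 h called 4 of the 8, where 30.4% of the tested genes were called (14.8% higher, 15.6% lower). Thbs4 rose by 1.46 ± 0.39 on the log2 scale (adjusted p = 0.00476, edgeR). Its counts over 3 libraries went from 4 to 23 in the wild type and from 163 to 224 in the knockout, so this value rests largely on few wild-type reads. Mid1 rose by 0.23 ± 0.05 (adjusted p = 0.00133) and Fstl1 by 0.20 ± 0.07 (adjusted p = 0.0362), while St6gal1 fell by 0.38 ± 0.03 (adjusted p = 5.15e-11, edgeR for each). The St6gal1 libraries of 4 h OVA lay below all untreated libraries of their genotype, at 98.2 to 101 CPM in the knockout and 68.3 to 71.2 CPM in the wild type. The Fstl1 call, though not its direction, was lost when any of 9 single libraries was left out or with DESeq2 (0.19, adjusted p = 0.0525). Over all single libraries left out the value ran from 0.13 (without untreated knockout library 3) to 0.27. In wild-type libraries alone only St6gal1 was called, and in knockout libraries alone St6gal1 and Mid1 were.

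Jurkat cells for 4 h called 6 of the 8, where 84.5% of the tested genes were called (40.9% higher, 43.6% lower). Of these, 4 rose: Thbs4 by 2.15 ± 0.36 (adjusted p = 2.64e-06), Apod by 1.68 ± 0.08 (5.18e-18), Mid1 by 1.49 ± 0.05 (1.2e-21) and Fstl1 by 0.74 ± 0.07 (7.94e-11, edgeR for all adjusted p). The other 2 fell: St6gal1 by 2.23 ± 0.03 (adjusted p = 3.49e-30) and Bdh1 by 0.48 ± 0.05 (adjusted p = 3.65e-10, edgeR). Jchain (-0.06 ± 0.10, adjusted p = 0.552) and Cyp11a1 (0.28 ± 0.16, adjusted p = 0.0938, edgeR) were not called. For Cyp11a1 this depends on the setting: it was called higher in knockout libraries alone (0.44, adjusted p = 0.0186, edgeR), with DESeq2 (0.34, adjusted p = 0.0462), without untreated knockout library 2 (0.37, adjusted p = 0.0267, edgeR) and without wild-type library 2 of 4 h Jurkat cells (0.35, adjusted p = 0.0489, edgeR).

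This last contrast depends on how libraries are scaled. With scaling by total counts in place of TMM the median log2 change of all genes was -0.39 in place of -0.02, 29.5% in place of 48.4% of the called genes were higher, and the values of the 8 genes were each lower by about the same amount (0.37 for Jchain). The 6 called members kept their direction. Jchain was then called lower (-0.43, adjusted p = 1.49e-04, edgeR), at about the shift of the median gene, and with DESeq2's size factors Cyp11a1 was called higher (0.34, adjusted p = 0.0419).

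**Figure D4:**
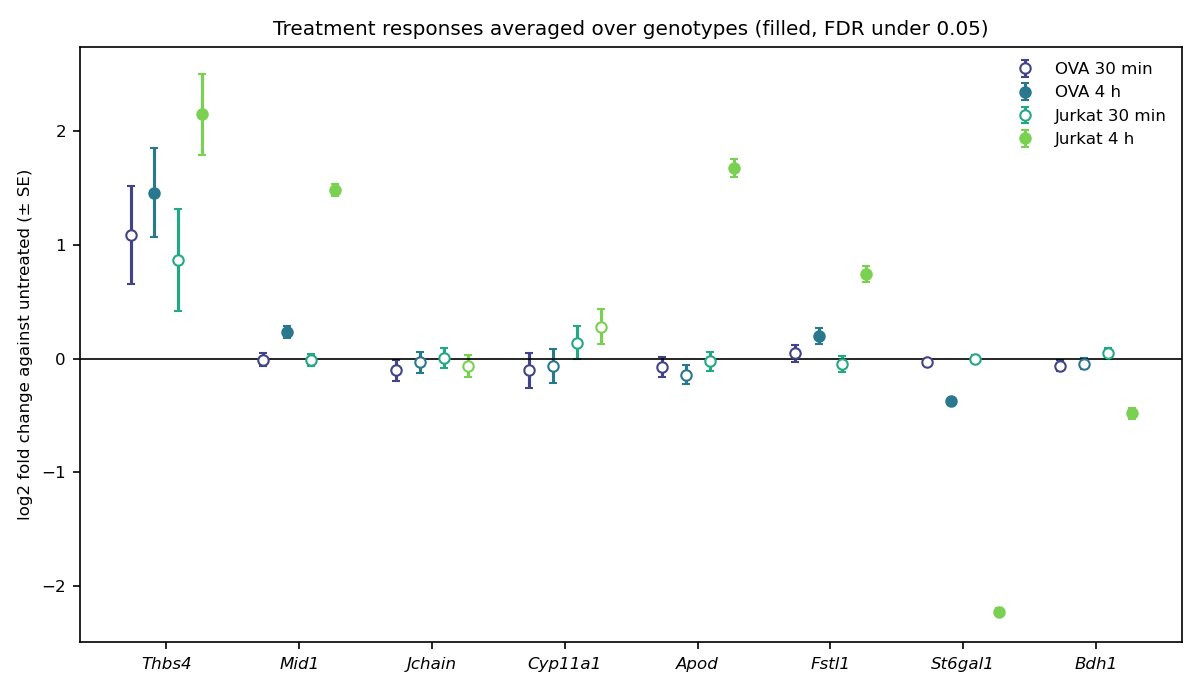
Log2 fold change of each treatment against untreated cells, averaged over genotypes (y axis, bars of 1 SE, 12 libraries a contrast), for the 8 genes (x axis) and the 4 treatments (colours), with filled points where FDR is under 0.05 in edgeR. St6gal1 at -2.23 and Thbs4 at 2.15 with Jurkat cells for 4 h are the farthest from 0, and no point at 30 min is filled.

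Markers of the added cells moved with the Jurkat treatment. Of 28 T lineage genes 22 rose and 4 fell after 4 h of Jurkat cells, and 19 rose and 1 fell after 30 min. Their summed level was 398 to 403 CPM in knockout and 464 to 484 CPM in wild-type libraries at 4 h, against 328 to 349 and 323 to 330 CPM in untreated cells. Much of this sum is Cd7, at 108 to 214 CPM over the 30 libraries and abundant in untreated cells (28367 counts in the knockout and 28109 in the wild type). Summed levels at 4 h depend on the scaling as the contrast does. The genome build was mouse only, per the submitters' processing notes, and the part of reads from the human cells in the levels of the 8 genes was not tested. The summed levels of the other marker lists were higher at 4 h of Jurkat cells as well. The stromal sum was 1608 to 2009 CPM in knockout and 1272 to 1456 CPM in wild-type libraries. The plasmacytoid dendritic cell sum was 3838 to 4264 CPM in knockout and 4756 to 5628 CPM in wild-type libraries, and the dendritic cell sum 27482 to 29381 and 28940 to 30433 CPM. Gene by gene these lists were mixed. Of 12 dendritic cell genes 5 rose and 7 fell (median -0.16), and the sum is mostly Cd74 and H2-Ab1. Of 13 plasmacytoid dendritic cell genes 8 rose and 5 fell, and of 14 stromal genes 12 rose and 2 fell.

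Given side by side, the responses of the 2 genotypes to Jurkat cells for 4 h were alike for Fstl1 (0.74 ± 0.10 in the knockout and 0.75 ± 0.10 in the wild type). Mid1 differed most among the well-counted members, at 1.12 ± 0.06 in the knockout and 1.86 ± 0.08 in the wild type. Apod was at 1.87 ± 0.12 and 1.49 ± 0.11, St6gal1 at -2.10 ± 0.05 and -2.36 ± 0.05, and Thbs4 at 1.01 ± 0.24 and 3.29 ± 0.68. These within-genotype values share the untreated libraries with the comparisons that chose the genes, so their difference is given without a test.

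Of the 8 genes, 4 lie on chromosome 16, the chromosome of Rubcn. In mm10 coordinates from the count table, Rubcn spans chr16:32821702-32868366, Apod chr16:31296192-31314808, Bdh1 chr16:31422297-31458901, Fstl1 chr16:37777055-37836516 and St6gal1 chr16:23224740-23360350. From midpoint to midpoint, Apod is at -1.54 Mb and Bdh1 at -1.40 Mb (before Rubcn), St6gal1 is at -9.55 Mb (before it) and Fstl1 at 4.96 Mb (after it). The other 4 lie elsewhere: Thbs4 at chr13:92751586-92794818, Mid1 at chrX:169685199-169990797, Jchain at chr5:88519809-88527897 and Cyp11a1 at chr9:57998024-58027031. All 8 are protein-coding in GENCODE.

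The 4 members are all of the steady genes within 10 Mb of Rubcn, other than Rubcn itself, out of 116 tested genes there. That is 3.45%, near the 2.27% found farther away and on other chromosomes, so the count within this window is close to the background. It was 7 without library 1 of the knockout with Jurkat cells for 30 min, and 4 to 7 over all single libraries left out. Within 20 Mb there were 8 such genes, the further 4 being Pkp2, Cd200r3, Ccdc80 and Phldb2, which were all higher in the knockout. Cd200r3 is itself a basophil gene. The knockout allele and any stretch of chromosome 16 carried along with it from another strain cannot be told apart by this design.

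Apod and Bdh1 are neighbours among the tested genes, 135 kb apart, and differed in opposite directions. The next tested genes around them, Ppp1r2 and Acap2 on one side and Dlg1 and Pigz on the other, were not called in any of the 5 comparisons. Of all tested genes 9.25% to 22.9% were called in each comparison, and the share never called in any of the 5 was not counted. The counts of neighbours given here therefore have no background to be read against. Across the 8 members, 15 of 26 neighbouring genes that are not members were never called between genotypes, 7 were called in 1 comparison, 3 in 2 and 1 in 4. That last gene was Rtp4, an interferon-induced gene 320 kb from St6gal1, which was lower in the knockout (-1.52 ± 0.15 in untreated cells, adjusted p = 3.21e-08, edgeR) while St6gal1 was higher. Masp1, which lies between them, was higher in 2 of 5 comparisons at a mean of 0.204 CPM.

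**Figure D5:**
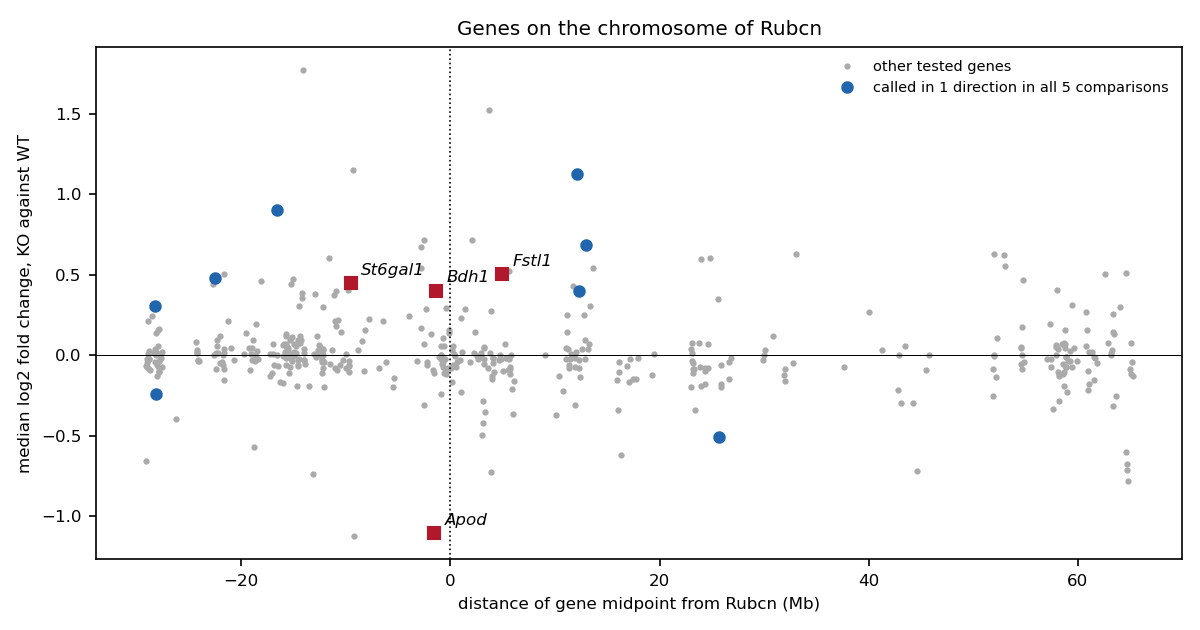
Median log2 fold change of knockout against wild type over the 5 conditions (y axis) for tested genes on the chromosome of Rubcn by distance of gene midpoint from Rubcn in Mb (x axis, Rubcn itself at the dotted line and not drawn). Red squares are Apod, Bdh1, Fstl1 and St6gal1, blue circles the other genes called in 1 direction in all 5 comparisons, and grey points all other tested genes. Some grey points also lie far from 0, such as Casr (1.52), Masp1 (1.15) and Rtp4 (-1.12).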

How the data were processed

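Bulk RNA from FLT3L-grown mouse bone marrow dendritic cells was sequenced in 30 libraries prepared with a TruSeq RNA kit (v2), per the labels' protocols (3 for each of 10 groups). The authors deposited whole-number counts per gene for 25611 genes; reads had been aligned with STAR 2.5 and counted with featureCounts 1.5.0-p1 against mm10, per the submitters' processing notes. Strand setting and treatment of reads with several positions were not given. Counts were tested with edgeR 4.0.16 (R 4.3.3): filtering by expression left 14808 genes, TMM scaling, 1 model of all 30 libraries with a term for each group, quasi-likelihood F test, Benjamini-Hochberg adjustment over all 14808 genes and a threshold of 0.05. A standard error is the absolute log2 fold change over the root of its F statistic. CPM are TMM-scaled.

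Genes were named by rule: the 8 members, Rubcn, up to 3 genes per list with the smallest adjusted p under 0.05 in untreated knockout against wild type, markers at or near 0, the 2 nearest tested genes on each side, steady genes (called in 1 direction in all 5 comparisons) near Rubcn, and the 2 genes most alike over the 30 libraries. Id1, Cd200r3, Pax5, Kit, Star, Apoe and similar single genes were chosen after their values were seen, for their known roles. The members and lists were chosen with earlier results of these data known. On simulated counts for 14475 genes the model recovered 94.5% of 200 changed genes in untreated knockout against wild type, and 84% of those changed 1.25-fold, with 9 false calls. Every simulated gene had the same relative spread between libraries (0.0515 of its mean). The simulation therefore does not show the recovery of genes with a wider spread, such as Cyp11a1 (0.132) and Thbs4 (0.116). Promoter windows are RefSeq's (GRCm38.p6), the same assembly as mm10. Alternatives were 2 other scalings, no filter and a stricter filter (5 CPM in 3 libraries), fits of the compared groups alone, 1 genotype alone, DESeq2 1.42.0, a replicate block and each library left out.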

Additional observations from a re-analysis of the deposited data

Results flagged for a closer look

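Mid1 with OVA for 30 min was the one case among the 8 genes and 4 treatments in which the treated libraries of both genotypes lay apart from their untreated libraries in opposite directions. Treated knockout libraries (12.05 to 13.2 CPM) lay above the untreated ones (9.995 to 11.4 CPM). Treated wild-type libraries (2.72 to 2.85 CPM) lay below the untreated ones (3.06 to 3.53 CPM). The share of all tested genes with such a pattern was not counted. The knockout response minus the wild-type response was 0.42 ± 0.11 (SE) on the log2 scale, and this difference was not tested.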

How the results depend on the processing

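The 40 knockout against wild type values of the 8 genes kept their direction and their side of the threshold under all 270 alternative values (the stricter filter gave none for genes it removed, Thbs4 and Cyp11a1), and 238 of 240 leave-one-out values did. The 2 exceptions were Bdh1 with Jurkat cells for 4 h. The genes were chosen by these same 40 values on the same libraries, so their stability is a description and lends them no support. The replicate numbers do not pair the samples: deviations from group means correlated between -0.118 and 0.108 over 15 same-numbered knockout and wild-type pairs, with 1 above 0.1, and in 3 of 24 treated and untreated pairs. With the replicate number as a block 1498 genes were called in untreated knockout against wild type (1477 without), and the calls on all 113 named values and the counts of members called (0, 4, 0 and 6) were the same.

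Leaving out each library, the genes called ranged from 898 to 1357 (untreated), 718 to 1792 (OVA 30 min), 1172 to 1709 (OVA 4 h), 708 to 1158 (Jurkat 30 min) and 2189 to 3102 (Jurkat 4 h) for knockout against wild type, against 1477, 1834, 1861, 1370 and 3392 with all libraries. The count moved by over 1.5 times without knockout library 1 (898) or wild-type library 2 (984) in untreated cells, knockout library 2 (718) or wild-type library 2 (1075) with OVA for 30 min, knockout library 1 (1172) or wild-type library 1 (1226) with OVA for 4 h, knockout library 3 (808) or wild-type library 1 (894) or 2 (708) with Jurkat cells for 30 min, and wild-type library 2 (2189) with Jurkat cells for 4 h. Fitted alone, the Jurkat 30 min groups gave 891. Wild-type libraries alone gave 1197 genes for OVA 30 min and 2949 for OVA 4 h, and knockout libraries alone 497, 1756 and, for Jurkat 30 min, 2435, against 2436, 4506 and 5547. Members called for OVA 4 h were 1 in the wild type alone and 2 in the knockout alone against 4. For OVA 30 min they were 0 to 1, with Thbs4 called without wild-type OVA library 1 (1.37). Steady genes near Rubcn were 3 within 5 Mb and 8 within 20 Mb; within 10 Mb they were 4 to 6 under the other settings and 4 to 7 with single libraries left out.

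The values that changed sign were all of members not called for that treatment, and none was called after the change. They were, for Jurkat 30 min, St6gal1 at 2.4e-04 with no filter, 0.0016 with the compared groups alone and 0.017 in the wild type alone, Jchain at -0.0044 with total-count scaling, and in the knockout alone Mid1 0.032, Jchain -0.14, Cyp11a1 -0.30, Apod 0.075, Fstl1 0.024 and Bdh1 -0.025. For Jurkat 4 h they were Jchain at 0.0011 with DESeq2's size factors and 0.048 in the wild type alone, and Cyp11a1 at -0.089 with total-count scaling. For OVA in the wild type alone they were Cyp11a1 0.032 and St6gal1 0.030 (30 min) and Jchain 0.039 and Cyp11a1 0.11 (4 h), and in the knockout alone Mid1 0.20 (30 min). Leave-one-out ranges that crossed 0 were, for Jurkat 30 min, Mid1 -0.035 to 0.023, Jchain -0.052 to 0.050, Apod -0.059 to 0.023, Fstl1 -0.11 to 0.022 and St6gal1 -0.012 to 0.013. For OVA 30 min they were Mid1 -0.033 to 0.026 and Fstl1 -0.020 to 0.12, and for OVA 4 h Jchain -0.088 to 0.016 and Cyp11a1 -0.18 to 0.032. The cause was not tested. With total-count scaling the share of called genes that were higher in the knockout was 63.8% in place of 50.5% (OVA 30 min), 64.5% in place of 49.5% (OVA 4 h) and 74.8% in place of 40.9% (Jurkat 4 h). Counts limit Thbs4 most, since its wild-type groups held 4 to 32 counts.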
